A study of Mus musculus with 12 samples.

Results

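Kupffer cells, the resident macrophages of the liver, were followed through 10 transcripts that mark them or macrophages in general: Cd163, Marco, Mrc1, Cd68, Clec4f, Timd4, Vsig4, C1qa, Csf1r and Adgre1. The genes were taken by their symbols. The arrays carried 13 probes for them (3 for Csf1r, 2 for Adgre1, 1 for each other gene) among 41174 probes for 27635 genes. All 10 genes and all 13 probes passed the filter on dim probes, which kept 19340 genes for testing.

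Liver RNA came from adrenalectomized C57BL/6 mice aged 11 weeks, with 1 animal per array and 3 animals in each of 4 groups. The groups were females given dexamethasone, females given vehicle, males given dexamethasone and males given vehicle. Dexamethasone, a synthetic glucocorticoid, was injected intraperitoneally at 1 mg/kg and livers were taken after 6 h, the vehicle was phosphate buffered saline, and the females were in diestrous 1. Removal of the adrenal glands, which make most of the body's own glucocorticoid, was common to all 4 groups, so animals with intact adrenals were not part of the comparison.

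Kupffer cells line the liver sinusoids, where they take up microbes, spent red cells and debris from portal blood through scavenger, lectin and complement receptors. Their survival depends on the receptor encoded by Csf1r. Glucocorticoids act on macrophages through the glucocorticoid receptor, and CD163, the receptor for haemoglobin bound to haptoglobin, is a known glucocorticoid-raised marker of human monocytes and macrophages. The defining Kupffer cell genes Clec4f, Timd4, Vsig4 and Marco were well above background on all 12 arrays, and so was the probe used for each of the other 6 genes. Whole liver was measured, so fewer macrophages and less RNA per macrophage cannot be told apart.

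Each value refers to the stretch of transcript that its 60-base probe read. The probe sequences of the gene with the clearest response and of 4 genes with strong Kupffer cell or complement roles are given because they define what was measured.
Cd163 probe: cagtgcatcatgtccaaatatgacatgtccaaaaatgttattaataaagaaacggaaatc
Marco probe: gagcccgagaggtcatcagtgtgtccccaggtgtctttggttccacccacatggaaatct
Clec4f probe: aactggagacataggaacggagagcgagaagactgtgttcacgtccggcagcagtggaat
Vsig4 probe: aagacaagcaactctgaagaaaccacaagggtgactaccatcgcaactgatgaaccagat
C1qa probe: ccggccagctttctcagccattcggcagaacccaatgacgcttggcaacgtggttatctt
On mm7, the build of the array design, these probes lie at chr6:124312766-124312825 for Cd163, chr1:120342087-120342147 for Marco, chr6:83670672-83670730 for Clec4f, chrX:91575173-91575232 for Vsig4 and chr4:136274931-136274990 for C1qa. Those of Cd68 and Timd4 lie at chr11:69746386-69746445 and chr11:46800424-46800483, that of Mrc1 at chr2:14281098-14281158, and the 2 of Adgre1 at chr17:55686649-55686708 and chr17:55613754-55613813. Exon and untranslated-region annotation of mm7 was not used here.

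Levels below are relative signals, in which 1 is the 75th percentile of the array's own spots. They are set against each other only within a probe, or as sums over the same probes. In such a sum the brightest probes weigh most. Before scaling, that percentile was 578 to 1251 intensity units, and 65.1 to 71.8% of probes on an array were well above background. Differences are log2 fold changes with their standard error from limma, with p-values adjusted by Benjamini-Hochberg over all 19340 genes and a threshold of 0.05. The arrays lay on 3 slides, each with both vehicle groups and with dexamethasone arrays of both sexes on slide 1 alone. Within a sex, dexamethasone arrays always sat at higher positions on a slide than vehicle arrays, and female arrays at higher positions than male arrays, so position cannot be told apart from treatment or sex.

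Cd163 was the member that rose with dexamethasone, and it did so in both sexes. Its relative signals were 9.20, 7.83 and 12.8 in females given dexamethasone, against 2.95, 5.68 and 2.81 in females given vehicle. In males they were 8.09, 8.11 and 6.56 after dexamethasone, against 2.76, 1.74 and 3.90 after vehicle. All 6 dexamethasone arrays stood above all 6 vehicle arrays, whichever sexes were set side by side. The log2 fold change was 1.43 ± 0.34 in females (limma, adjusted p = 0.0189) and 1.51 ± 0.34 in males (adjusted p = 0.00965), with n = 3 arrays per group. Over the mean of both sexes it was 1.47 ± 0.24 (limma, adjusted p = 0.00100). Within slides the difference was 0.46 (slide 1) and 1.88 (slide 2) in females and 1.56 (slide 1) and 2.07 (slide 3) in males. With slide as a block the adjusted p from limma was 0.0463 in females and 0.00914 in males. The female call was lost without female dexamethasone array 3 (adjusted p = 0.0563), female vehicle array 1 (0.0698) or female vehicle array 3 (0.0660), and the male call held whichever array was left out.

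**Figure D1:**
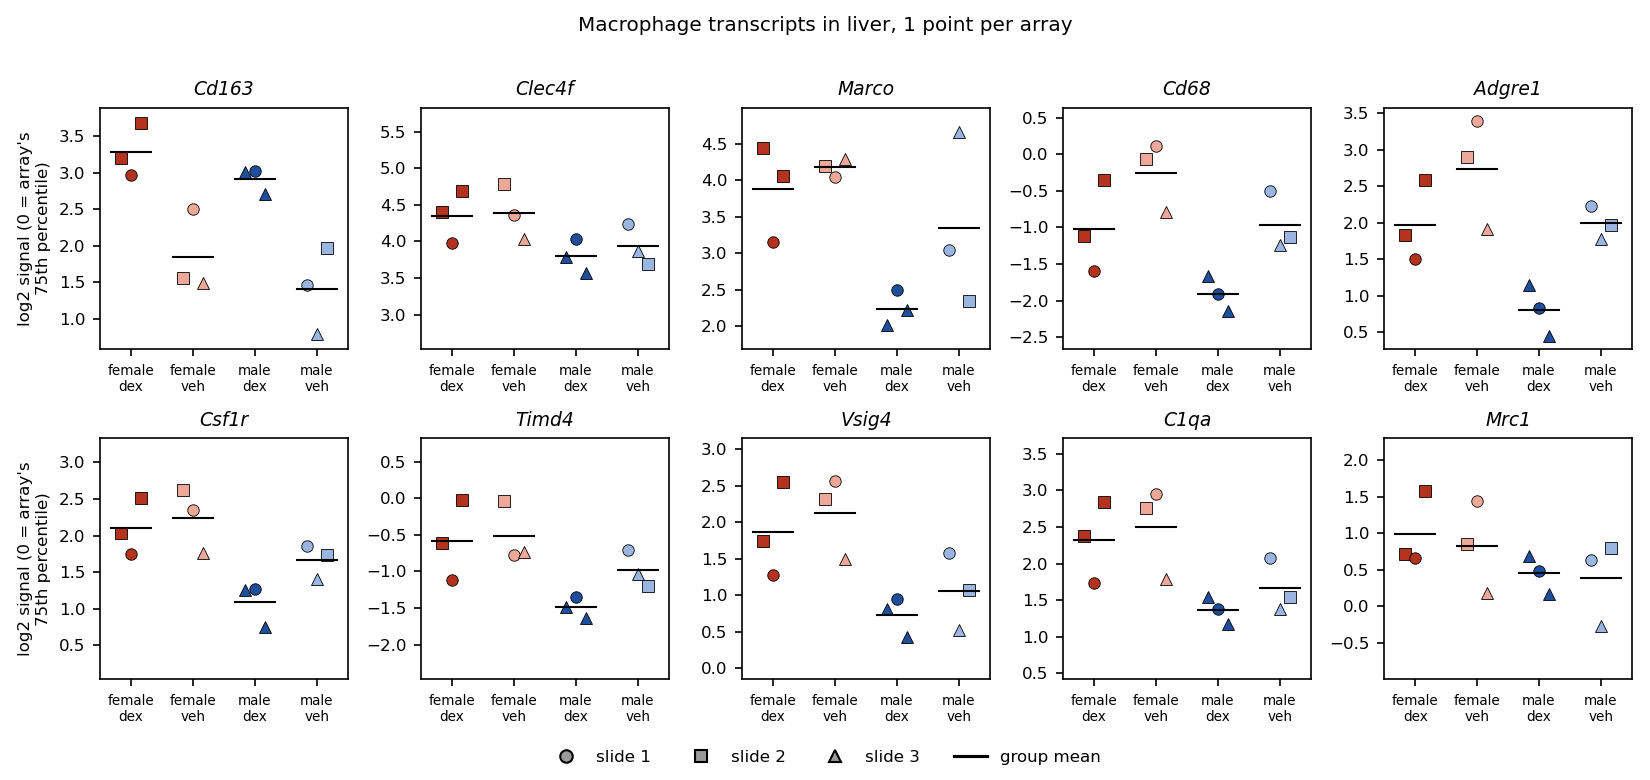
Log2 signal of each member by group, 1 point per array, with the array's 75th percentile at 0, shapes for the 3 slides and a bar for the group mean (n = 3). Cd163 is higher on all 6 dexamethasone arrays than on all 6 vehicle arrays, while Adgre1, Cd68, Csf1r and Timd4 lie lower after dexamethasone in males without overlap.

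The start of the Cd163 gene was read for the short sequences that the glucocorticoid receptor binds, since this gene alone among the members rose. The 250 bases before its annotated start, at chr6:124304401-124304650 on the plus strand of GRCm38.p6 in RefSeq, are shown with the half-site in capitals.
Cd163 upstream: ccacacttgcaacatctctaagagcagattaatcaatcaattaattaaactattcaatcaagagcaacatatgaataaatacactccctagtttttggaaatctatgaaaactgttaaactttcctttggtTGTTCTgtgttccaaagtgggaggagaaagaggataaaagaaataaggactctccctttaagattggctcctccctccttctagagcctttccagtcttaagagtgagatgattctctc
The half-site searched was AGAACA on both strands, and the one shown lies on the minus strand at bases 132 to 137. A second half-site lies on the plus strand at bases 277 to 282 of the 300-base window, which ends 50 bases after the start. Clec4f held 1 half-site in its window, at bases 239 to 244, and 5 other members whose RefSeq window was searched (Marco, Mrc1, Timd4, Cd68 and Vsig4) held none. Of 32851 promoter windows of that length, 19% held AGAACA. The full element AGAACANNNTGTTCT was in 0.00913% of windows and in none of the 7 of the members. A macrophage motif of PU.1, GAGGAAGT, was in 3.2% of windows and in none of these 7, and the C/EBP motif TTGCNNAA was in 10.8% and in that of Cd68. The searched half-site overlaps the full element, and a match describes letters only.

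Adgre1 and Cd68 were the members that fell. Adgre1 encodes F4/80, an adhesion receptor used as a general marker of mouse macrophages. In females its relative signals were 3.56, 2.82 and 6.00 after dexamethasone, against 7.47, 10.5 and 3.76 after vehicle. In males they were 2.22, 1.78 and 1.36 after dexamethasone, against 4.68, 3.43 and 3.91 after vehicle. The male groups did not overlap, whereas the highest female dexamethasone array lay above the lowest female vehicle array. The log2 fold change was −0.77 ± 0.38 in females (limma, adjusted p = 0.213) and −1.18 ± 0.38 in males (adjusted p = 0.0450). Over the mean of both sexes Adgre1 fell by 0.97 ± 0.27 on the log2 scale (limma, adjusted p = 0.0164). Within slides the difference was −1.90 and −0.69 in females and −1.39 and −0.98 in males.

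The male call of Adgre1 was at the threshold. It was lost with slide as a block (−0.97, limma adjusted p = 0.111) and without any 1 of the 6 male arrays or of female dexamethasone array 1 and female vehicle array 1, with a highest adjusted p of 0.143. The dimmer Adgre1 probe read 0.0109, 0.348 and 0.00561 in males given dexamethasone, against 0.0283, 0.0196 and 0.0215 in males given vehicle. Its value of 0.348, on male dexamethasone array 2, stood far above the other 11 arrays, and on the other two male dexamethasone arrays it was not well above background. Averaging the 2 probes gave −0.45 in males (limma, adjusted p = 0.699) and −0.62 over both sexes (0.365).

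Cd68 encodes a glycoprotein of late endosomes and lysosomes that is abundant in phagocytes. In females its relative signals were 0.459, 0.332 and 0.784 after dexamethasone, against 0.953, 1.08 and 0.579 after vehicle. In males they were 0.315, 0.266 and 0.227 after dexamethasone, against 0.708, 0.422 and 0.455 after vehicle. The male groups did not overlap, and the female groups did. The log2 fold change was −0.77 ± 0.34 in females (limma, adjusted p = 0.161) and −0.95 ± 0.34 in males (0.0678), neither past the threshold. Over the mean of both sexes Cd68 fell by 0.86 ± 0.24 on the log2 scale (limma, adjusted p = 0.0177), and it passed in all 23 alternative settings tried for that comparison (highest adjusted p 0.0455). Within slides the difference was −1.70 and −0.67 in females and −1.41 and −0.66 in males.

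Csf1r, the receptor for CSF1 and interleukin 34, did not pass for dexamethasone in either sex. In females its relative signals were 4.10, 3.37 and 5.69 after dexamethasone, against 6.14, 5.11 and 3.39 after vehicle. In males they were 2.39, 2.40 and 1.68 after dexamethasone, against 3.61, 2.65 and 3.33 after vehicle, and these male groups did not overlap. The log2 fold change was −0.15 ± 0.26 in females (limma, adjusted p = 0.776) and −0.58 ± 0.26 in males (0.141). In males all 3 probes had a negative difference, −0.58, −0.80 and −0.81. Over both sexes 1 of its dimmer probes passed when tested over all probes, at −0.63 (limma, adjusted p = 0.0261). That probe was not well above background on male dexamethasone array 2.

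Marco, a scavenger receptor with a collagen-like stalk that binds bacteria, varied most among arrays of 1 group. In females its relative signals were 21.8, 8.91 and 16.6 after dexamethasone, against 18.4, 16.5 and 19.7 after vehicle. In males they were 4.06, 5.64 and 4.66 after dexamethasone, against 8.29, 25.3 and 5.08 after vehicle. Male vehicle array 2 read highest of the 12 arrays, and the male groups overlapped through male vehicle array 3. The log2 fold change was −0.30 ± 0.50 in females (limma, adjusted p = 0.759) and −1.11 ± 0.50 in males (0.140). Without male vehicle array 3 the male difference was −1.61 (limma, adjusted p = 0.0418), and over both sexes it was then −0.95 (0.0428). Leaving out each array in turn, the male difference ran from −1.61 to −0.45, with a highest adjusted p (limma) of 0.421. Over both sexes it ran from −0.95 to −0.37, with a highest adjusted p (limma) of 0.300. Within slides the difference was −0.89 and 0.05 in females and −0.56 and −2.54 in males.

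Nor did Timd4, Vsig4 and C1qa pass for dexamethasone in either sex. Timd4, which binds phosphatidylserine on dying cells, read 0.653, 0.461 and 0.990 in females given dexamethasone, against 0.980, 0.586 and 0.601 in females given vehicle. In males it read 0.357, 0.392 and 0.322 after dexamethasone, against 0.611, 0.489 and 0.435 after vehicle. The male groups of Timd4 did not overlap, but its male difference of −0.51 ± 0.28 did not pass (limma, adjusted p = 0.226). Vsig4 encodes a complement receptor that captures opsonised microbes from blood, and C1qa encodes a chain of C1q, the recognition unit of the classical complement pathway. Vsig4 differed by −0.26 ± 0.38 in females and −0.32 ± 0.38 in males, and C1qa by −0.18 ± 0.34 in females and −0.30 ± 0.34 in males. For both genes the dexamethasone and vehicle arrays overlapped in each sex.

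Clec4f, a lectin found on mouse Kupffer cells, had the smallest spread within groups of any member. Its relative signals were 21.1, 15.7 and 25.8 in females given dexamethasone, against 27.5, 20.7 and 16.4 in females given vehicle. In males they were 13.8, 16.4 and 11.9 after dexamethasone, against 18.8, 14.6 and 13 after vehicle. The groups overlapped in both sexes, and the 95% interval of the log2 difference was −0.58 to 0.49 in females and −0.67 to 0.40 in males. Mrc1, the mannose receptor, which liver sinusoidal endothelial cells carry as well as macrophages, ranged from 1.59 to 2.98 in females given dexamethasone and from 1.14 to 2.71 in females given vehicle. In males it ranged from 1.13 to 1.61 after dexamethasone and from 0.826 to 1.74 after vehicle. Its log2 difference was 0.16 ± 0.38 in females and 0.07 ± 0.38 in males, again with overlapping groups.

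**Figure D2:**
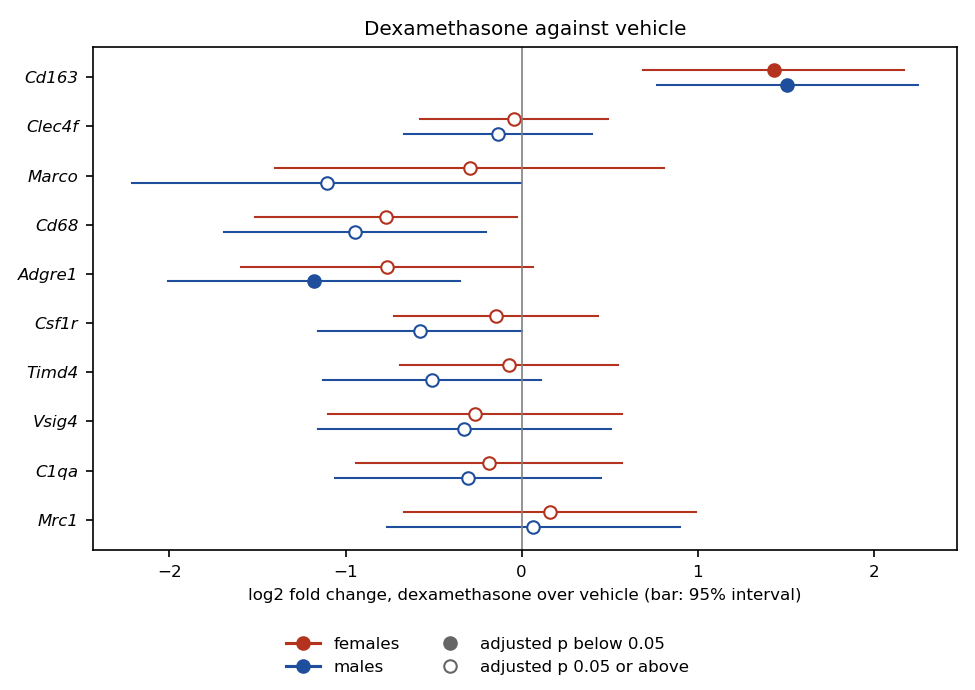
Log2 fold change of dexamethasone over vehicle for each member in females and males, with 95% intervals, where filled points have an adjusted p below 0.05 (limma, 3 arrays per group). Cd163 stands at 1.43 and 1.51, and Adgre1 in males at −1.18 is the other filled point.

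In females 1 of the 10 members rose and 0 fell, where 13.7% of all genes tested passed in either direction. In males 1 rose and 1 fell, where 22.5% of all genes passed. Over the mean of both sexes 1 rose and 2 fell, where 34.1% passed, so these counts were near the background share. Groups that did not overlap were seen for 1 member in females (30.9% of all genes) and 5 in males (43.5%). The members' median log2 fold change was −0.16 in females and −0.42 in males, beside 0.02 and 0.01 over all genes. With slide as a block that median was −0.29 in females and −0.22 in males. The female effect minus the male effect was tested directly, and 0 of 10 members passed, with 0 at an unadjusted p below 0.05 (limma, all adjusted p 0.9998). Of all genes 0.00517% passed there. The interval of that difference was wide, from −1.12 to 0.97 for Cd163 and from −0.76 to 1.59 for Adgre1.

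Set against the other members on the same array, Cd163 moved apart from them after dexamethasone. Cd163 minus the mean of the other 9 members was 1.45, 1.71 and 1.41 log2 units in females given dexamethasone, against −0.70, 0.23 and −0.06 in females given vehicle. In males it was 2.12, 2.11 and 2.16 after dexamethasone, against −0.14, −0.43 and 0.76 after vehicle. The 3 male dexamethasone arrays lay within 0.1 log2 units of each other, and no dexamethasone array overlapped a vehicle array. The mean of the other 9 members was 1.76, 1.26 and 2.27 in females given dexamethasone, against 2.26, 2.27 and 1.55 in females given vehicle. It was 0.90, 0.91 and 0.55 in males given dexamethasone, against 1.60, 1.23 and 1.20 in males given vehicle, without overlap. These values rest on the same measurements as the tests above and are given as a description.

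**Figure D3:**
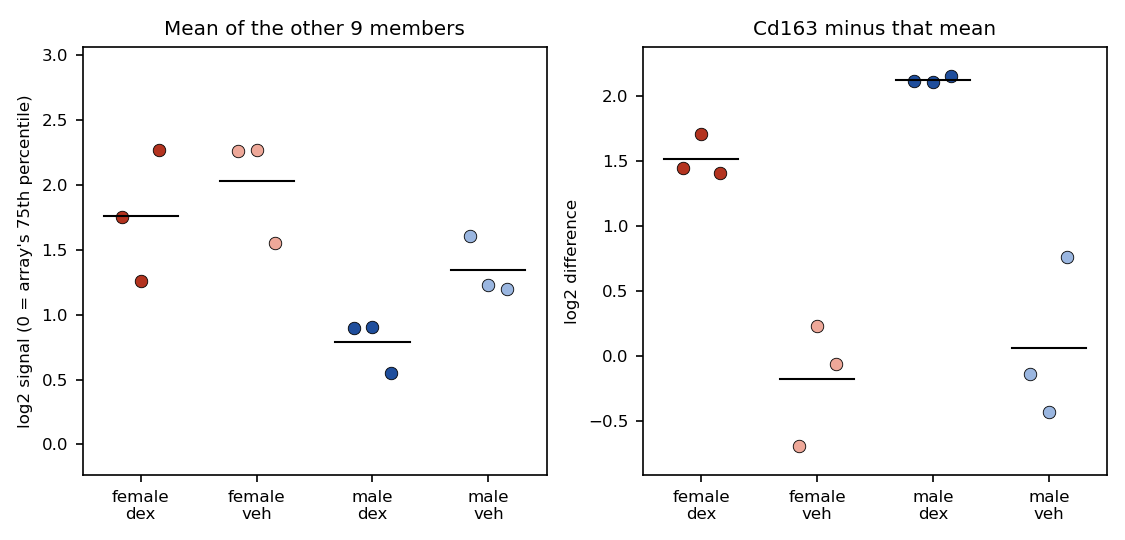
Left, mean log2 signal of the 9 members other than Cd163, with the array's 75th percentile at 0; right, Cd163 minus that mean in log2 units, with 1 point per array and a bar for the group mean (n = 3). The 6 dexamethasone arrays lie between 1.41 and 2.16 in the right panel and the 6 vehicle arrays between −0.70 and 0.76.

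A wider list of macrophage genes was read beside the members. Of 22 general macrophage genes, 0 rose and 4 fell in females, where 6.88% of all genes fell. In males 1 rose and 10 fell, where 12.1% of all genes fell. The list's median log2 fold change was −0.38 in females and −0.65 in males. Aif1, which encodes the calcium-binding protein IBA1, fell by 1.46 ± 0.21 on the log2 scale in females (limma, adjusted p = 0.00226) and by 2.12 ± 0.21 in males (0.000231). Msr1, the class A scavenger receptor, fell by 1.36 ± 0.27 in females and 1.66 ± 0.27 in males. Cybb, the catalytic subunit of the phagocyte oxidase, fell by 0.62 ± 0.16 in females and 1.24 ± 0.16 in males. Fcgr1, the high-affinity IgG receptor, fell by 1.04 ± 0.26 in females and 1.58 ± 0.26 in males.

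Kupffer cell markers outside the members did not pass in either sex alone, with 0 of 10 called (limma) and 1 in females and 3 in males at an unadjusted p below 0.05. Over the mean of both sexes 2 of the 10 fell, where 17.4% of all genes fell. These were Cd5l, a secreted macrophage protein, at −0.83 ± 0.23 (limma, adjusted p = 0.0169), and Il18bp, which binds and blocks interleukin 18, at −0.60 ± 0.19 (0.0303). Among the partners of C1q and receptors of complement fragments, C3ar1, the C3a receptor, fell by 0.65 ± 0.14 on the log2 scale over both sexes (limma, adjusted p = 0.00581). C1qc, another chain of C1q, fell by 0.60 ± 0.21 (0.0495), so 2 of 3 tested genes passed. On the CSF1 axis, 2 of 4 tested genes fell over both sexes and 1 rose, where 34.1% of all genes passed in either direction. Csf1, the ligand of the Csf1r product, fell by 1.05 ± 0.23 (limma, adjusted p = 0.00588). Csf2rb, the shared beta chain of other cytokine receptors and not part of the CSF1 receptor, fell by 0.63 ± 0.17 (0.0181). Il34, the other ligand of the Csf1r product, rose by 0.41 ± 0.13 (0.0274).

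Genes known to be raised by glucocorticoids in macrophages, most of them raised in other cells too, were read beside Cd163. In each sex 4 of 7 tested rose and 0 fell, where 6.79% of all genes rose in females and 10.4% in males. In each sex 2 of the 7 had a negative difference. Over both sexes 5 rose and 1 fell (limma), where 34.1% of all genes passed in either direction and 17.4% fell. Fkbp5, a co-chaperone of the glucocorticoid receptor, rose by 3.86 ± 0.43 in females (limma, adjusted p = 0.000595) and 4.45 ± 0.43 in males (0.000184). Dusp1, a phosphatase of MAP kinases, rose by 2.72 ± 0.54 in females and 3.15 ± 0.54 in males. Tsc22d3, which encodes GILZ, rose by 1.76 ± 0.37 in females and 1.54 ± 0.37 in males. Il1r2, a decoy receptor for interleukin 1, was not above background by the scanner's flag on the 3 arrays of females given vehicle and was at least 3.96-fold higher in females given dexamethasone, and it rose by 2.16 ± 0.45 on the log2 scale in males. Of 7 genes for haemoglobin and haem handling, 1 fell in females (limma), where 6.88% of all genes fell. In males 0 passed (limma), and 2 had an unadjusted p below 0.05. Over both sexes 1 of the 7 rose and 2 fell, where 34.1% of all genes passed in either direction. Hp, which encodes haptoglobin, rose by 0.40 ± 0.12 (limma, adjusted p = 0.0238). Blvra, a biliverdin reductase, fell by 0.35 ± 0.10 on the log2 scale (0.0187). Tnfsf12, which encodes the cytokine TWEAK, was called lower (adjusted p = 0.00515), with no array of males given dexamethasone well above background.

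Markers of other cells in the liver moved with the treatment too, and their part in the members' differences was not tested. For monocytes, 0 of 6 tested markers passed in females (limma, 1 at an unadjusted p below 0.05) and 2 fell in males: S100a4 by 1.51 ± 0.32 and Ccr2 by 1.37 ± 0.23 on the log2 scale. Their summed relative signal was 0.912 to 1.16 in females given dexamethasone, against 0.941 to 1.73 in females given vehicle. It was 0.407 to 0.694 in males given dexamethasone, against 0.949 to 1.77 in males given vehicle, without overlap. Of 11 markers of sinusoidal endothelial cells, 1 rose and 2 fell in females, and 2 rose and 4 fell in males. Lyve1, a hyaluronan receptor, rose by 1.94 ± 0.48 in females and 1.89 ± 0.48 in males, whereas Fcgr2b, the inhibitory IgG receptor, fell by 0.97 ± 0.23 in females and 1.43 ± 0.23 in males. The endothelial sum was 40.9 to 67.0 in females given dexamethasone, against 44.6 to 81.5 in females given vehicle, and 33.8 to 39.5 in males given dexamethasone, against 36.1 to 48.8 in males given vehicle. Beside all these counts, 6.79% of all genes rose and 6.88% fell in females, and 10.4% rose and 12.1% fell in males. Of 5 B cell markers, 3 fell in each sex. In females 1 of 8 T and NK cell markers and 1 of 6 dendritic cell markers rose, and none of 7 neutrophil, 8 stellate cell and fibroblast, 5 cholangiocyte and 3 erythroid markers passed (limma). In males 2 T and NK cell, 2 dendritic cell, 1 neutrophil and 4 stellate cell and fibroblast markers fell, 1 dendritic cell and 1 cholangiocyte marker rose, and no erythroid marker passed (limma). Of 7 hepatocyte markers, 1 rose in females and 4 in males, and the hepatocyte sum was 2327 to 2462 in females given dexamethasone, against 1950 to 2275 in females given vehicle, and 2578 to 3032 in males given dexamethasone, against 2117 to 2211 in males given vehicle. Of the peritoneal macrophage genes, Gata6 rose and Icam2 fell in each sex, while Alox15 and Serpinb2 never stood well above background on these arrays.

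**Figure D4:**
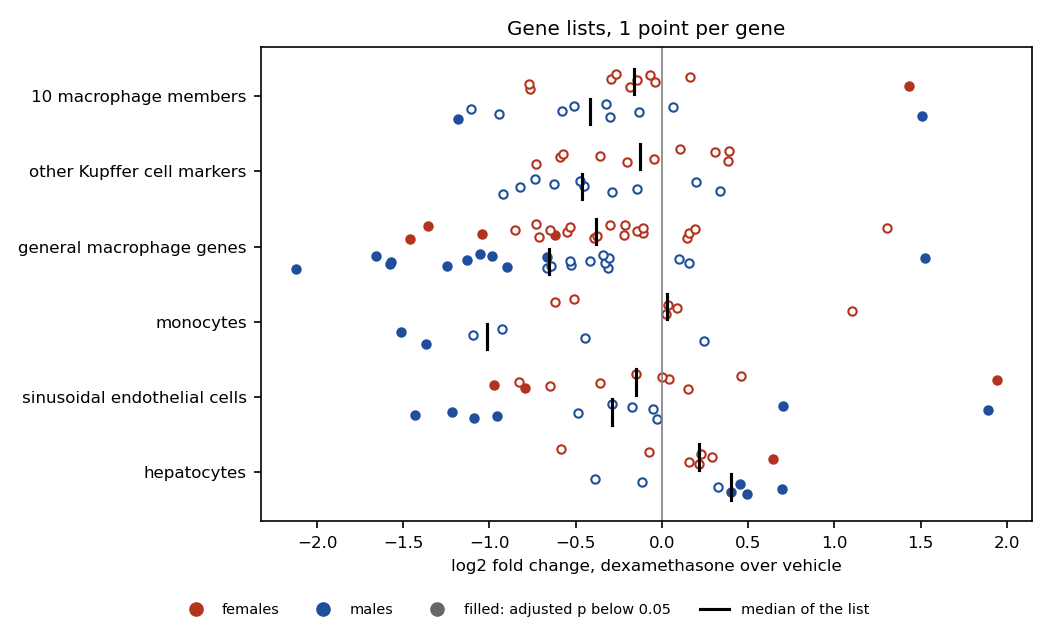
Log2 fold change of dexamethasone over vehicle for every tested gene of 6 lists, 1 point per gene, in females and males, filled where the adjusted p was below 0.05 (limma, 3 arrays per group), with a bar at the list's median. General macrophage genes have a median of −0.38 in females and −0.65 in males, with 4 and 10 filled points below 0.

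All 10 members had a higher mean in females than in males under both treatments, and 1 difference passed the test. Csf1r passed under dexamethasone, with relative signals of 4.10, 3.37 and 5.69 in females, against 2.39, 2.40 and 1.68 in males. Every female array stood above every male array, and the log2 difference was 1.01 ± 0.26 (limma, adjusted p = 0.0490). Tested over all probes, of which 5.08% passed, its other probes gave 1.20 (limma, adjusted p = 0.0308) and 1.07 (0.0572), and the probe used gave 1.01 (0.0509). The probe at 1.20 was dim, with relative signals of 0.0127 to 0.0180 in males given dexamethasone. On male dexamethasone array 2 it was not well above background. The gene's call was lost with slide as a block (0.59, limma adjusted p = 0.313) and without any 1 of the 6 dexamethasone arrays, the 3 male vehicle arrays or female vehicle array 2, with a highest adjusted p of 0.140. On slide 1, the slide with both sexes under dexamethasone, the difference was 0.49.

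In the count of calls, 1 of 10 members was higher in females under dexamethasone, where 5.81% of all genes passed in either direction and 3.27% were higher. In 7 of 10 members every female dexamethasone array stood above every male one, where 11.7% of all genes did so. The members' median log2 difference was 0.93, beside −0.05 over all genes. With slide as a block the median was 0.56, 9 of 10 members were positive, Cd163 stood at −0.05 and 0 were called (limma). Marco differed by 1.64 ± 0.50 (limma, adjusted p = 0.0837), Adgre1 by 1.16 ± 0.38 (0.100), Vsig4 by 1.13 ± 0.38 (0.110) and Timd4 by 0.91 ± 0.28 (0.0874), none past the threshold. Without male vehicle array 2, which changes only the shared estimate of spread, Marco passed (adjusted p = 0.0200), and without female dexamethasone array 2 Timd4 did (0.0480). Each passed in only 1 of 24 alternative settings, with a highest adjusted p (limma) of 0.222 for Marco and 0.415 for Timd4. C1qa differed by 0.96 ± 0.34, Cd68 by 0.88 ± 0.34, Clec4f by 0.55 ± 0.24, Mrc1 by 0.54 ± 0.38 and Cd163 by 0.37 ± 0.34. On slide 1 alone, with 1 array per group, 8 of 10 members were higher in the female, and the differences ran from −0.06 to 0.66.

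Under vehicle the log2 difference was positive for all 10 members, from 0.44 for Mrc1 to 1.07 ± 0.38 for Vsig4 (limma, adjusted p = 0.228), with a median of 0.64 beside −0.05 over all genes. None passed (limma), where 1.97% of all genes did, and 3 had an unadjusted p below 0.05: Csf1r, Vsig4 and C1qa. No member's female and male vehicle arrays were free of overlap, where 20% of all genes were. The comparisons of treatment within a sex and of sex within a treatment share arrays. Vsig4 read 4.95, 5.90 and 2.83 in females given vehicle, against 2.97, 1.44 and 2.09 in males given vehicle, so 1 female array lay within the male range. C1qa read 6.77, 7.77 and 3.46 in females given vehicle, against 4.23, 2.60 and 2.91 in males given vehicle, again with 1 female array inside the male range.

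**Figure D5:**
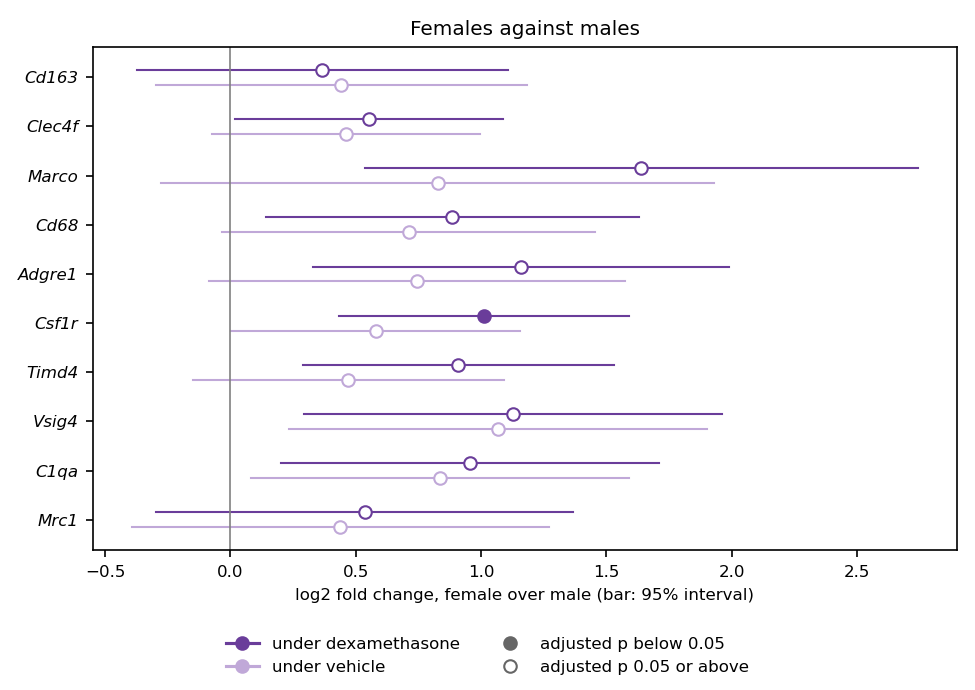
Log2 difference of females over males for each member under dexamethasone and under vehicle, with 95% intervals, where filled points have an adjusted p below 0.05 (limma, 3 arrays per group). All 20 points lie above 0, from 0.37 to 1.64, and Csf1r under dexamethasone is the filled one.

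Under dexamethasone some markers of other cells were also higher in females than in males, and their part in the members' differences was not tested. Of all genes tested, 3.27% were higher in females and 5.81% passed in either direction. Of the general macrophage genes, 5 of 22 were higher in females and 0 lower. Of the other Kupffer cell markers, 2 of 10 were higher, Spic, a transcription factor of macrophages that recycle red cell iron, by 1.08 ± 0.27 (limma, adjusted p = 0.0452) and Slc40a1, which encodes the iron exporter ferroportin, by 1.18 ± 0.27 (0.0314), both named after their values were seen. Higher calls were also made for 1 of 6 monocyte, 1 of 5 B cell, 1 of 11 endothelial, 3 of 6 dendritic cell, 2 of 8 T and NK cell and 2 of 8 stellate cell and fibroblast markers. Lower calls were made in the erythroid and haem handling lists. Of 3 erythroid markers, Alas2, which starts haem synthesis in red cell precursors, was lower in females by 2.81 ± 0.35 on the log2 scale (limma, adjusted p = 0.00196). The erythroid sum was 32.4 to 47.1 in females given dexamethasone, against 65.4 to 117 in males given dexamethasone, without overlap. Under vehicle it was 24.8 to 47.6 in females, against 61.3 to 89.5 in males, again without overlap. There too 1 of the 3 erythroid markers was called lower in females (limma), where 1.97% of all genes passed in either direction. Of 7 haem handling genes, Blvrb, another biliverdin reductase, named after its values were seen, differed by −0.55 ± 0.14 (limma, adjusted p = 0.0417). The median log2 difference was 1.08 for B cell, 0.94 for neutrophil, 0.84 for T and NK cell and 0.75 for monocyte markers. It was 0.88 for the other Kupffer cell markers and 0.77 for the general macrophage genes. For endothelial markers it was 0.54, for stellate cells and fibroblasts 0.53, for dendritic cells 0.46, for cholangiocytes 0.28 and for erythroid cells −0.81. The median of the 7 hepatocyte markers was −0.23, with 0 called (limma) and 3 at an unadjusted p below 0.05. The summed relative signal of the 10 members was 46.8 to 84.6 in females given dexamethasone, against 31.4 to 40.9 in males given dexamethasone.

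Ordered by group mean, 6 members (Clec4f, Marco, Csf1r, Timd4, Vsig4 and C1qa) were highest in females given vehicle, then females given dexamethasone, males given vehicle and males given dexamethasone. For Adgre1 and Cd68, males given vehicle came ahead of females given dexamethasone. For Cd163 both dexamethasone groups came first, and for Mrc1 both female groups did. In 25 of the 30 pairs of neighbours in these orders the arrays overlapped.

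Within a group many members had their highest or lowest value on the same array, though not in every case. Female dexamethasone array 3 was the highest of its group in 9 of 10 members, and female dexamethasone array 2 the lowest in 10 of 10. Male dexamethasone array 3 was the lowest of its group in 9 members. Female vehicle array 3 was the lowest of its group in 8 members, and male vehicle array 2 in 7. The highest male dexamethasone array was array 2 in 6 members and array 1 in 4. The highest female vehicle array was array 2 in 6 members, array 1 in 3 and array 3 in 1. The share of all genes with such extremes was not counted. Female dexamethasone arrays 2 and 3 lay on slides 1 and 2, so animal and slide cannot be told apart there.

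The genes whose values over the 12 arrays lay closest to those of Adgre1, by the root mean square difference of centred log2 values, were Cd53 (0.17), Cd68 (0.19) and Pilra (0.19). For Cd163 they were Ttll7, Serinc3 and Insl6, each at 0.29. For Marco they were Gapdhs (0.49), Bcl2a1b (0.50) and Angpt4 (0.51). The members' own root mean square distance from their mean was 0.81 for Adgre1, 0.85 for Cd163 and 0.93 for Marco.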

How the data were processed

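Liver RNA (500 ng of total RNA, labelled with Cy3) of 12 mice was hybridized to single-colour Agilent arrays. The deposited scanner files hold intensities, made by the authors in Agilent Feature Extraction 9.5, per the file headers and the submitters' processing notes. The intensity used was the processed signal, which per the file headers was background-subtracted and detrended within each array. The deposited series values equalled it in all cells. Other flags of the scanner software, deposited by the authors as 0 or 1, marked spots well above background, saturated or outlying.

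Deposited intensities were taken to log2, and scaled by subtracting the 75th percentile of an array's own non-control spots. Outlier spots were left out (57 probes lost), spots of a probe were averaged, and a probe stayed if any group had it well above background on each of its 3 arrays (28842). The brightest probe stood for a gene. Names were updated with a RefSeq table of GRCm38.p6: 22951 probes matched by accession, 6659 by symbol and 3109 by synonym, and 8455 keep the name in the files. RefSeq promoter windows were searched for 7 of the 10 members.

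A limma 3.58.1 model (R 4.3.3, data.table version 1.17.8, figures with matplotlib) of 4 group means was fitted to all 12 arrays, leaving 8 residual degrees of freedom, and 6 comparisons were adjusted by Benjamini-Hochberg over 19340 genes. The script was tested on simulated data. The number of arrays limits the precision. Alternatives covered scaling, background, probe filter, probe choice, slide and replicate blocks, array weights, the arrays fitted and leaving out each array. Named genes were the members, up to 4 genes per list with the smallest p over both sexes, and the 3 genes most like each of the 3 members with the widest range of group means. Lists also covered cholangiocytes, neutrophils and erythroid cells. The result of 1 general macrophage gene is not reported here. The members and lists were chosen with earlier results of these data known.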

Additional observations from a re-analysis of the deposited data

How the results depend on the processing

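Over both sexes, 3 members, each judged by its brightest probe, passed in the settings that kept all arrays, except when a gene's probes were averaged, where 2 passed and Adgre1 was lost. In males the count of 2 became 1, Cd163, with the median in place of the 75th percentile, no filter on dim probes, averaged probes, slide as a block and the replicate block, and 3, with Cd68 added, when only the compared arrays were fitted (limma adjusted p = 0.0334) and with array weights (0.0441). In females the count of 1 became 0 when only the compared arrays were fitted (Cd163, limma adjusted p = 0.0524). For females against males under dexamethasone, the count of 1 became 0 with the median, every probe as its own feature (judged by the brightest, while a dimmer Csf1r probe passed), slide as a block, the replicate block and only the compared arrays. The cause was not tested. Leaving out 1 array at a time gave 1 to 3 in males, 0 to 1 in females, 3 to 4 over both sexes, 0 to 1 for sex under dexamethasone, and 0 for the interaction and for sex under vehicle. No called value changed sign. Replicate numbers did not pair the samples (same-number correlations of deviations −0.20 to 0.33); in the replicate block Adgre1 in males had adjusted p = 0.0723 and Csf1r between the sexes 0.0779. The 3 arrays per group limit all intervals.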
